A study of Mus musculus with 15 samples.

Results

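The mRNA levels of 10 zinc-handling genes were followed in RAW 264.7 cells, a mouse macrophage line, after 6 h with silica nanoparticles (SNPs). The genes were taken by name from the deposited table of 57186 genes, and all 10 passed the filter that left 19839 genes for testing. They are the metallothioneins Mt1 and Mt2, their regulator Mtf1, the zinc exporters Slc30a1, Slc30a4, Slc30a5, Slc30a6 and Slc30a7, and the zinc importers Slc39a1 and Slc39a10.

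There were 15 libraries in 5 groups of 3. The nonporous Stöber particles SNP100 and SNP50, with nominal diameters of 100 and 50 nm, were given at 50 and 25 µg/mL. The mesoporous MSNPs and the hollow mesoporous HMSNPs, both with a nominal diameter of 100 nm, were each given at 200 µg/mL, and the nontreated controls received no particles. All cells grew in RPMI medium with 10% FBS. The groups were compared to see how macrophages that have taken up as much of a particle as they can respond to its porosity, size and inner structure. Of the groups compared here, MSNP and HMSNP match in dose by mass per volume. The study describes HMSNPs as low in density and distinct in surface composition, and inner structure cannot be told apart from these. SNP100, SNP50 and MSNP each had a different dose, so particle type and dose cannot be told apart in comparisons involving SNP100 or SNP50. The library names give each group a number of its own, whose meaning the labels do not state, and this number and the treatment cannot be told apart either. Nothing in the labels says that the 3 libraries of a group came from separate cultures, so the p-values measure the spread between these libraries, which may be technical. In bulk RNA, fewer cells that express a gene and less of its RNA per cell cannot be told apart.

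Cells keep free zinc in the cytosol very low. Metallothioneins are small cysteine-rich proteins that bind zinc and copper, members of the SLC30 (ZnT) family move zinc out of the cytosol across the plasma membrane or into organelles, and members of the SLC39 (ZIP) family move zinc into the cytosol. MTF1 is a zinc finger transcription factor that senses a rise in cytosolic zinc and binds short metal response elements near its target genes, of which Mt1, Mt2 and Slc30a1 are the best known, and macrophages use these proteins both to protect themselves from metals and to starve or poison ingested microbes.

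The core of the metal response element was searched as TGCACNC and TGCGCNC on both strands, in a window from 250 bases before to 200 bases after the start of the GENCODE canonical transcript on GRCm39, with N standing for any base. The patterns differ in a single letter and cannot match the same letters on the same strand. The window held 5 matches for Mt1, 6 for Mt2, 3 for Slc30a1, 2 for Slc30a4 and 1 for Slc30a5. It held 0 for the other 5 genes. Of the windows of 21757 protein-coding genes, 39.1% held at least 1 match, 13.7% at least 2, 4.48% at least 3, 0.409% at least 5 and 0.115% at least 6. A match is a match of letters, not a site shown to be bound, and the start used in these cells was not measured. The sites shown are all matches of Mt1 and Slc30a1 and those before the start of Mt2. They are written 5′ to 3′ on the strand of the gene, with the match in capitals. Each line gives the position of the first base of the match relative to the transcript start and says where the match reads on the opposite strand.
Mt1, chr8:94905684-94905710, plus strand, position -16: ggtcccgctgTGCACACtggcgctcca
Mt1, chr8:94905709-94905735, plus strand, position 10: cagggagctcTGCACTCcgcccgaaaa
Mt1, chr8:94905727-94905753, plus strand, position 28: gcccgaaaagTGCGCTCggctctgcca
Mt1, chr8:94905791-94905817, plus strand, position 92, opposite strand: accgcctgctGGGTGCAaaccctttgc
Mt1, chr8:94905805-94905831, plus strand, position 106: gcaaacccttTGCGCCCggactcgtcc
Mt2, chr8:94899013-94899039, plus strand, position -109: gcatcgcctcTGCACCCggcccctcgg
Mt2, chr8:94899108-94899134, plus strand, position -14: gcagacccttTGCGCTCagctcctttg
Slc30a1, chr1:191638598-191638624, plus strand, position -235: cgcccgccgcTGCACCCggccgcggcc
Slc30a1, chr1:191638840-191638866, plus strand, position 8, opposite strand: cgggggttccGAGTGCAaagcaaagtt
Slc30a1, chr1:191638913-191638939, plus strand, position 81, opposite strand: cctccgggccGAGCGCAgtcgccgcgg

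Total counts lay between 29369934 and 42617812 per library. All 10 macrophage markers had mean counts above 3 in every group, with summed levels of 13500 to 14400 CPM (counts scaled to the size of the library) in the MSNP-treated group and 15900 to 20500 CPM in the other groups. Of these 10 markers, 5 fell and 2 rose in the MSNP-treated group, where 22.8% of all tested genes were called. The part of these marker changes in the results below was not tested. Markers of fibroblasts, epithelial cells and B cells summed to at most 0.136 CPM in any library, and T cell markers to at most 0.397 CPM, the highest values standing in the MSNP-treated group and coming from Cd4. Neutrophil markers summed to between 1.36 and 3.23 CPM. The control libraries differed from each other more than the replicates of any treated group did, with a mean chi-square per gene of 73.1 to 226 between control libraries and 4.95 to 15.3 between treated replicates.

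Control replicate 3 stood apart, and the zinc genes departed in it to differing degrees. Compared with the other 2 controls, its median log2 difference over bins of genes ordered by transcript length went from 0.7 in the shortest bin to -0.86 in the longest. The same medians, each taken against the other 2 replicates, ran the opposite way in the other controls, from -0.27 to 0.19 in Control replicate 1 and from -0.43 to 0.63 in Control replicate 2, where the comparison includes Control replicate 3. They stayed between -0.18 and 0.17 in the 12 treated libraries. Mt1 and Mt2, whose transcripts of 762 and 748 bases belong to the shortest bin, stood 0.85 and 0.79 higher in Control replicate 3 than in the other controls on the log2 scale. Slc39a10, with 6444 bases, stood at -1.14, Slc30a4 at -0.6, Slc30a7 at -0.38, Slc30a1 at -0.35, Mtf1 at -0.26 and Slc30a5 at -0.14. Slc39a1 stood at 0.49 and Slc30a6 at 0.2. Mtf1 and Slc30a7 belong to the longest bin, with its median of -0.86, and Slc30a5 and Slc39a10 to a bin at -0.52. Mtf1, Slc30a7 and Slc30a5 thus departed less than the median of their bin. Slc39a10 departed more, as did Slc39a1, in a bin at 0.14. Each comparison with the controls is therefore given with all libraries, without Control replicate 3, and with all libraries and an offset that takes out, library by library, the trend over transcript lengths. The offset takes out the trend at the length of a gene, which can be more or less than the departure of that gene.

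**Figure D1:**
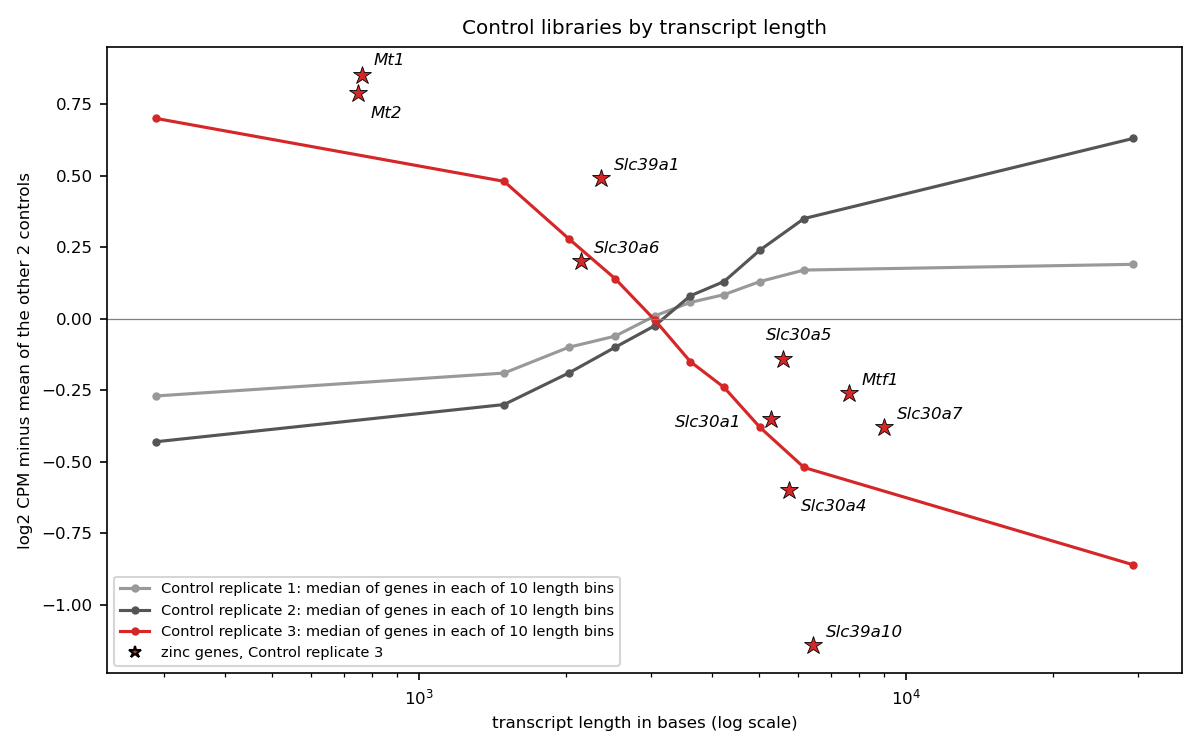
Log2 CPM of each control library minus the mean of the other 2 controls (vertical axis) against transcript length in bases (horizontal, log scale). Lines join the medians of the genes in 10 length bins, and stars are the 10 zinc genes in Control replicate 3. The line of Control replicate 3 runs from 0.7 down to -0.86, with Mt1 and Mt2 near its upper end and Slc39a10, at -1.14, below it.

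Per length, the metallothioneins were the most abundant of the 10 mRNAs. In the nontreated controls, levels per kilobase of transcript were 239 ± 87.2 CPM per kb (SD, n = 3) for Mt1, 115 ± 39.2 for Mt2, 61.1 ± 12.7 for Slc39a1 and 20.4 ± 1.19 for Slc30a5. The other 6 genes lay between 4.31 CPM per kb, for Mtf1, and 8.36 CPM per kb, for Slc30a6, and their mean ± SD ranges overlapped from each gene to the next in this order. All further levels are CPM scaled by TMM normalization and not divided by length, so they compare libraries and not genes.

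**Figure D2:**
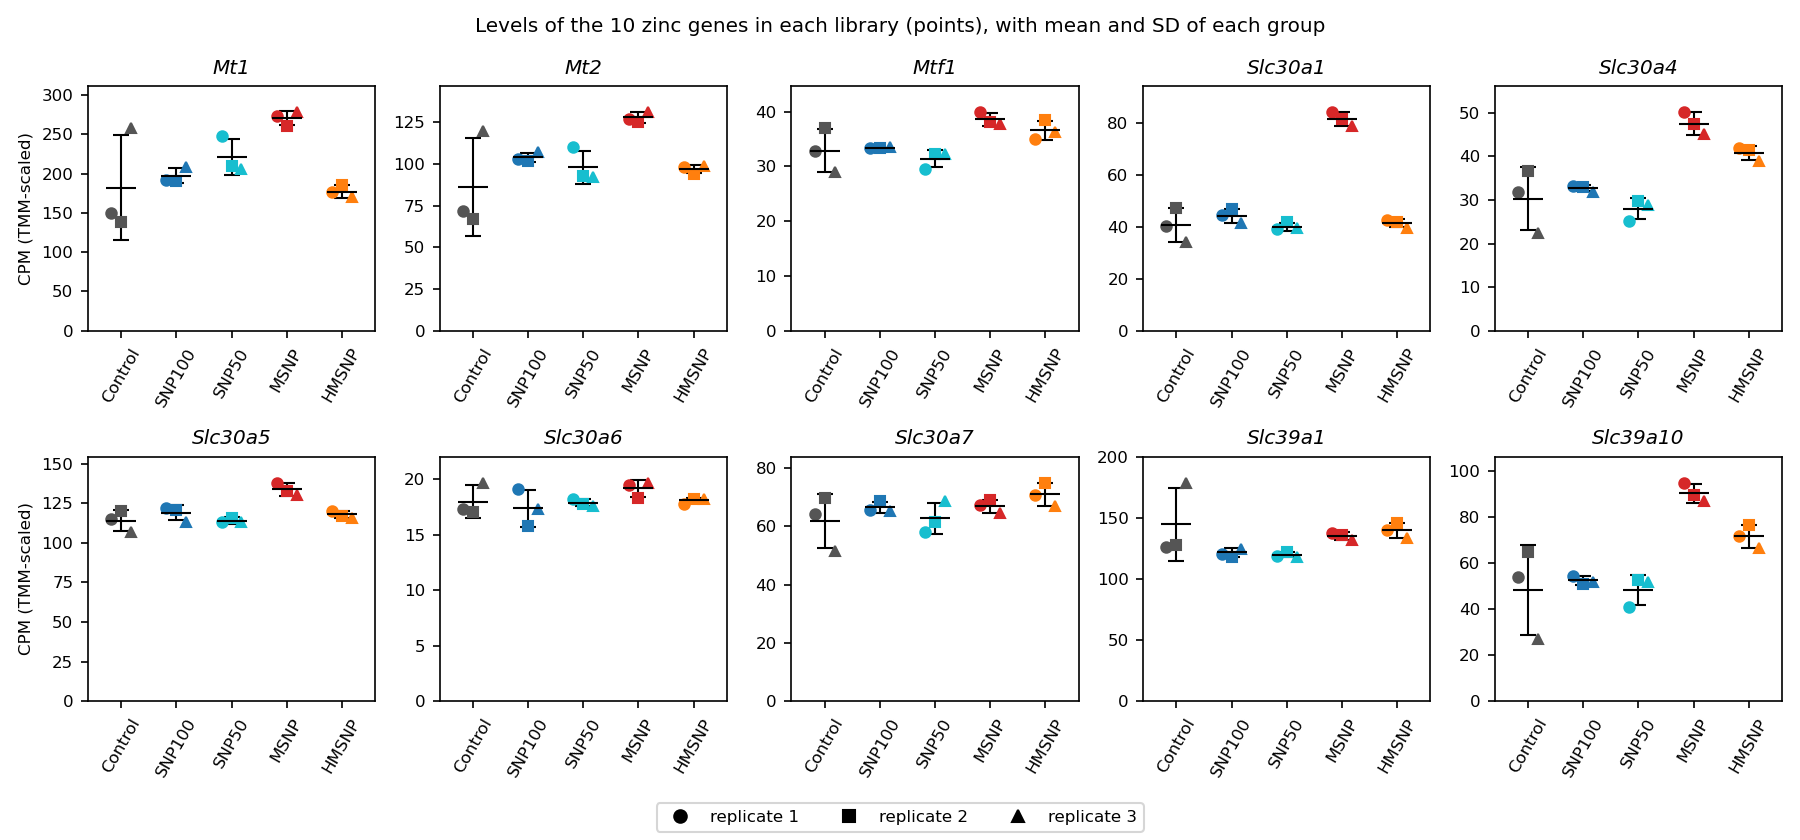
Level of each of the 10 zinc genes in each of the 15 libraries, in CPM after TMM scaling (vertical axis, from 0), by group (horizontal). Points are libraries with a symbol for each replicate number, and bars give the mean and SD of each group of 3. Slc30a1 in the MSNP-treated group lies between 79 and 84.3 CPM, above every other library, while Mt1 and Mt2 in Control replicate 3 lie far above the other controls.

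The exporter Slc30a1 (ZnT1), which carries zinc out across the plasma membrane, had the largest fold change among the 10 genes with MSNPs when all libraries were used and was called against the controls in no other group. Without Control replicate 3 its log2 fold change of 0.9 stood beside 0.92 for Mt1, with the length offset 0.86 stood beside 0.89 for Mt1, and without Control replicate 2 its 1.13 stood beside 1.17 for Slc39a10. It stood at 84.3, 81.5 and 79 CPM in the MSNP-treated group and at 40.5, 47.2 and 34.2 CPM in the controls. It stood at 44.6, 47 and 41.5 CPM with SNP100, at 39.2, 42 and 39.5 CPM with SNP50, and at 42.8, 41.9 and 39.7 CPM with HMSNPs. Slc30a1, whose 3 motif matches are shown above, thus had its MSNP libraries apart from the 12 others, whose 4 groups overlapped. Slc30a1 was 2.01-fold higher with MSNPs than in the controls (log2 fold change 1.01 ± 0.096 SE, adjusted p = 1.32e-06, edgeR quasi-likelihood test with Benjamini-Hochberg adjustment), and it passed the threshold under all 23 alternatives, at log2 fold changes from 0.86 to 1.13. With HMSNPs at the same dose it was 0.508 of the MSNP level (log2 -0.98 ± 0.0958, adjusted p = 1.92e-06), again under all 23 alternatives. In the other 3 comparisons with the controls its interval was -0.078 to 0.33 for SNP100, -0.22 to 0.19 for SNP50 and -0.18 to 0.23 for HMSNPs (95%, log2 scale). The antisense lncRNA gene 1700034H15Rik shares 468 exon bases with Slc30a1 and had 29 to 82 counts, against 1161 to 3021 for Slc30a1.

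Of all 10 genes, 6 rose in the MSNP-treated group compared with the controls and 0 fell, while 22.8% of all tested genes were called in this comparison, 11.8% higher and 11% lower. Beside Slc30a1 these were Mt1, Mt2, Slc30a4, Slc30a5 and Slc39a10. The median log2 fold change of the 10 genes was 0.4, and that of all tested genes was -0.052. MSNP and control libraries did not overlap for 7 of the 10 genes, the 6 called and Mtf1, and for 33.2% of all tested genes. When the model held only the 6 libraries of the comparison, with the wide spread of the controls, 1 of the 10 genes was called, Slc30a1, and 13% of all genes tested there. Leaving out Control replicate 3 gave 6 calls among the 10, when 29.5% of all tested genes were called, and the length offset gave 5, without Slc30a5, when 28.7% were.

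The metallothioneins were higher with MSNPs than in the controls, and how they stood with the other particles depended on Control replicate 3. Mt1 was measured at 150, 138 and 258 CPM in the controls and at 273, 261 and 278 CPM with MSNPs. Its levels were 192, 191 and 208 CPM with SNP100, at 248, 210 and 206 CPM with SNP50, and at 176, 185 and 170 CPM with HMSNPs. Control replicate 3 thus lay above every library except those of the MSNP-treated group, while every treated library lay above the other 2 controls. Mt2 followed the same order in the controls, at 71.8, 67 and 120 CPM, and stood at 127, 125 and 131 CPM with MSNPs. It stood at 103, 102 and 107 CPM with SNP100, at 110, 92.7 and 91.9 CPM with SNP50, and at 98.4, 94 and 98.5 CPM with HMSNPs. Again the third control was above every library except those of the MSNP-treated group.

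With all libraries, the log2 fold change in the MSNP-treated group was 0.57 ± 0.17 for Mt1 (adjusted p = 0.0242, edgeR) and 0.56 ± 0.159 for Mt2 (adjusted p = 0.0181). Mt1 missed the threshold without Control replicate 1 (log2 0.48, adjusted p = 0.0643) and without Control replicate 2 (log2 0.41, adjusted p = 0.0547), and both genes missed it when only the 6 libraries were used (adjusted p = 0.176 for Mt1 and 0.159 for Mt2). When Control replicate 3 was left out, the values were 0.92 for Mt1 (adjusted p = 7.95e-09) and 0.89 for Mt2 (adjusted p = 3.66e-09), and with the length offset they were 0.89 and 0.87.

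Neither gene was called in the other 3 comparisons with the controls when all libraries were used, and both were called higher in each of them without Control replicate 3. In that fit Mt1 was higher by a log2 fold change of 0.45 with SNP100 (adjusted p = 0.000828), 0.61 with SNP50 (3.39e-05) and 0.3 with HMSNPs (0.00954). Mt2 was higher by 0.58 with SNP100 (adjusted p = 4.15e-05), 0.49 with SNP50 (9.99e-05) and 0.48 with HMSNPs (6.68e-05). The length offset with all 15 libraries also called both genes higher in these 3 groups, at 0.27, 0.31 and 0.31 for Mt1 and 0.41, 0.2 and 0.51 for Mt2. For Mt1 with HMSNPs the direction itself turned, since the value with all libraries was -0.039. Mt1 and Mt2 are close copies of each other on chromosome 8, and how reads that match both were counted is not given in the sources used here.

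The balance between the metallothioneins was measured within each library as the ratio of Mt1 to Mt2 counts, which does not depend on the scaling between libraries. The ratio was 2.09, 2.06 and 2.15 in the controls, so that Control replicate 3 did not stand apart in it, and 2.16, 2.09 and 2.12 with MSNPs. It was lower with SNP100, at 1.86, 1.88 and 1.94, and with HMSNPs, at 1.79, 1.97 and 1.73. It was higher with SNP50, at 2.26, 2.27 and 2.24. These 3 groups did not overlap the controls, whereas the MSNP-treated group did. With 3 libraries against 3, the exact two-sided permutation test cannot give a p below 0.1, and it gave 0.1 in 6 of the 7 comparisons (0.117 after Benjamini-Hochberg adjustment over the 7) and 0.5 for MSNP against Control. The design is therefore too small for these differences to pass the threshold by this test.

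Mtf1, the regulator, differed less. It was measured at 32.8, 37 and 29 CPM in the controls and at 39.9, 38.1 and 37.8 CPM with MSNPs, which did not overlap. It lay between 29.5 and 38.4 CPM in the 9 libraries of the other particles. The log2 fold change with MSNPs was 0.23 ± 0.0813 and missed the threshold (adjusted p = 0.0557, edgeR). It was called higher by DESeq2 (adjusted p = 0.0353), with the filterByExpr filter (0.0409) and without Control replicate 2 (log2 0.32, adjusted p = 0.00516). With the length offset it was -0.002, and with the offset and without Control replicate 3 it was 0.16 and called higher (adjusted p = 0.0157). Without Control replicate 3 and with no offset it was 0.15 and missed the threshold (adjusted p = 0.0775). It was not called under 19 of the 23 alternatives. With HMSNPs Mtf1 stood at 0.15 ± 0.0812 (adjusted p = 0.263) and was called without Control replicate 2 (log2 0.26, adjusted p = 0.0248). The antisense gene 1110065P20Rik shares 761 exon bases with Mtf1 and had 407 to 930 counts, against 875 to 1582 for Mtf1, so that reads of one may count for the other if the counting did not use strand.

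The exporter Slc30a4 (ZnT4), which loads zinc into endosomal and lysosomal vesicles, stood highest with MSNPs and next with HMSNPs. Its levels were 31.7, 36.7 and 22.4 CPM in the controls, at 50.1, 47.3 and 45 CPM with MSNPs and at 42, 41.5 and 39 CPM with HMSNPs. The levels were 33.1, 33 and 31.9 CPM with SNP100 and at 25.2, 29.8 and 28.9 CPM with SNP50. The libraries of both porous particles lay above all 9 others without overlapping each other. Slc30a4 rose with MSNPs by a log2 fold change of 0.65 ± 0.13 (adjusted p = 0.00174, edgeR), and by 0.48 without Control replicate 3 (adjusted p = 7.66e-05). With the length offset it rose by 0.5 (adjusted p = 6.77e-06). With HMSNPs the value was 0.43 ± 0.13 and missed the threshold (adjusted p = 0.0703), and it was called at 0.25 without Control replicate 3 (adjusted p = 0.0473), at 0.26 with the length offset (0.0105), at 0.61 without Control replicate 2 (0.00511) and at 0.44 by DESeq2 (0.0298). With SNP50 it was -0.11 with all libraries and was called lower, at -0.29, without Control replicate 3 (adjusted p = 0.0136).

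Exporters of the early secretory pathway moved little. Slc30a5 (ZnT5) and Slc30a6 (ZnT6) form a heterodimer that supplies zinc to enzymes in the Golgi, and Slc30a7 (ZnT7) has a related role there. Slc30a5 was measured at 115, 120 and 107 CPM in the controls and at 138, 133 and 130 CPM with MSNPs, a log2 fold change of 0.23 ± 0.0609 (adjusted p = 0.011, edgeR). The groups did not overlap, but the call was lost without MSNP replicate 1 (adjusted p = 0.0518) and with the length offset (log2 0.061, adjusted p = 0.558). Without Control replicate 3 Slc30a5 was still called, at 0.2 (adjusted p = 0.00362). With the other particles Slc30a5 lay between 113 and 122 CPM. Slc30a6 lay between 15.8 and 19.7 CPM over all 15 libraries, and its intervals against the controls reached from -0.22 to 0.26 over the 4 particles. Slc30a7 lay between 51.5 and 74.9 CPM, and its intervals reached from -0.19 to 0.41. It was called with HMSNPs without Control replicate 2 (log2 0.31, adjusted p = 0.0324). Slc30a7 shares 2316 exon bases with the antisense gene Dph5, which had 981 to 1459 counts, and Slc30a6 shares 867 with Nlrc4, which had 35 to 101.

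The importer Slc39a10 (ZIP10) rose with MSNPs, while Slc39a1 (ZIP1) did not pass the test in any comparison with all libraries. Slc39a10 was measured at 54, 65 and 26.9 CPM in the controls, at 95.1, 89.7 and 87 CPM with MSNPs and at 72, 76.7 and 66.5 CPM with HMSNPs. The levels were 54.6, 51.1 and 52 CPM with SNP100 and at 41.1, 52.8 and 52 CPM with SNP50. As for Slc30a4, the porous particles gave the 6 highest libraries, those of MSNPs above those of HMSNPs. The log2 fold change with MSNPs was 0.9 ± 0.214 (adjusted p = 0.00633, edgeR) and 0.61 without Control replicate 3 (adjusted p = 7.39e-05). The length offset gave 0.77 (adjusted p = 7.93e-05). With HMSNPs it was 0.56 ± 0.214 and missed the threshold (adjusted p = 0.137), as it did without Control replicate 3 (log2 0.27, adjusted p = 0.105), while it was called with the length offset (log2 0.39, adjusted p = 0.0443) and without Control replicate 2 (log2 0.85, adjusted p = 0.0118). With SNP50 it was 0.0011 with all libraries and turned to -0.29, called lower, without Control replicate 3 (adjusted p = 0.0438).

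Slc39a1, a plasma membrane importer, was measured at 126, 128 and 179 CPM in the controls, at 121, 118 and 125 CPM with SNP100 and at 119, 122 and 118 CPM with SNP50. Neither nonporous group overlapped the controls. The log2 fold change was -0.25 ± 0.105 with SNP100 (adjusted p = 0.412) and -0.28 ± 0.105 with SNP50 (adjusted p = 0.28). These values were -0.07 and -0.097 without Control replicate 3. With the length offset the SNP50 value of -0.26 was called lower (adjusted p = 0.0458). Slc39a1 stood at 138, 136 and 132 CPM with MSNPs and at 140, 146 and 134 CPM with HMSNPs. These libraries lay above Control replicates 1 and 2 and below Control replicate 3. The log2 fold change was -0.098 with MSNPs and -0.05 with HMSNPs with all libraries. Without Control replicate 3 it turned to 0.095 (adjusted p = 0.174, edgeR) and 0.13 (adjusted p = 0.112), neither called.

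**Figure D3:**
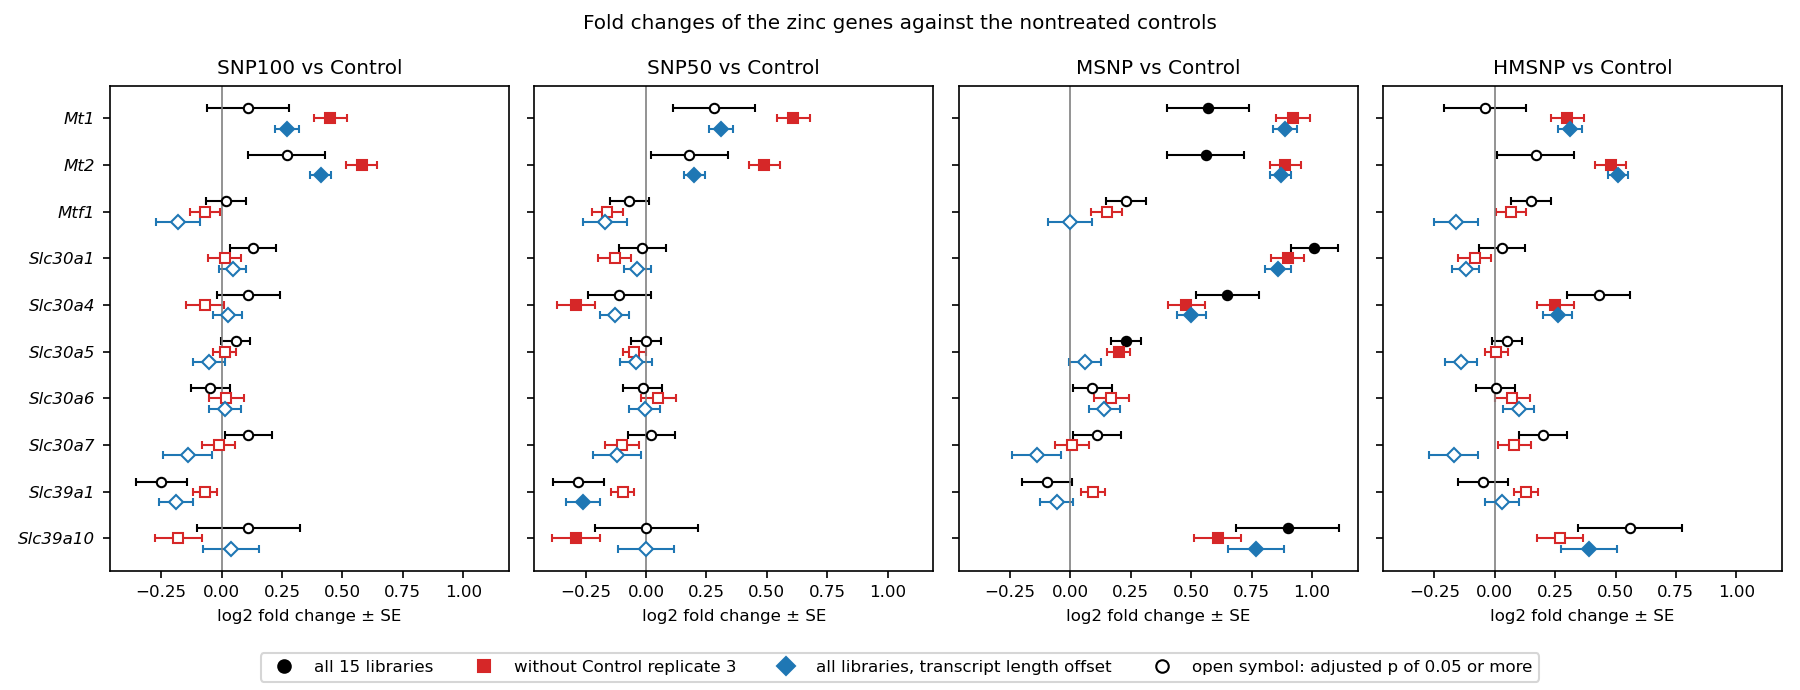
Log2 fold change against the nontreated controls (horizontal axis, with SE bars) of the 10 zinc genes (vertical) in the 4 particle groups, with all 15 libraries (black circles), without Control replicate 3 (red squares) and with the transcript length offset (blue diamonds). Filled symbols passed an adjusted p of 0.05. Slc30a1 is filled under all 3 settings with MSNPs and under none with the other particles, while Mt1 and Mt2 with SNP100, SNP50 and HMSNPs are open with all libraries and filled under the other 2 settings.

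For the particles other than MSNPs, 0 of the 10 genes were called with all libraries by edgeR. In the SNP100-treated group the share of all tested genes called was 0.912% (0.509% higher and 0.403% lower), and before adjustment Slc39a1, 1 of the 10 genes, had p under 0.05. In the SNP50-treated group the share was 1.41% (0.454% higher and 0.958% lower), and before adjustment Slc39a1 was again the 1 gene with p under 0.05. In the HMSNP-treated group the share was 5.16% (2.46% higher and 2.7% lower), and 2 genes, Slc30a4 and Slc39a10, had p under 0.05 before adjustment. Of all 19839 tested genes, 2085 with SNP100, 2384 with SNP50 and 4771 with HMSNPs had p under 0.05 before adjustment. DESeq2 called 0 of the 10 genes with SNP100, 0 with SNP50 and 1 with HMSNPs. It called 3.96%, 5.27% and 15.1% of the genes with an adjusted p in these groups. With Control replicate 3 left out, edgeR called 2 with SNP100, when 5.16% of all tested genes were called, 4 with SNP50, when 18.9% were, and 3 with HMSNPs, when 8.66% were. Without Control replicate 2 it called 4 with HMSNPs, when 25.2% of all tested genes were called. The groups did not overlap for 1 of the 10 genes with SNP100, 1 with SNP50 and 2 with HMSNPs, against 12.5%, 14.1% and 22.9% of all tested genes.

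Between the particles given at one dose, 3 of the 10 genes were lower with HMSNPs than with MSNPs and 0 were higher, while 20.2% of all tested genes were called, 11% lower and 9.22% higher. These were Slc30a1, Mt1 (log2 -0.61 ± 0.171, adjusted p = 0.0181, edgeR) and Slc30a5 (log2 -0.18 ± 0.0608, adjusted p = 0.0454). The groups did not overlap for 7 of the 10 genes, compared with 45.3% of all tested genes. Mt1 missed the threshold without HMSNP replicate 3 (adjusted p = 0.0686). Slc30a5 missed it under 15 of the 23 alternatives, which were RLE normalization, no filter on low counts, and leaving out Control replicate 1 or any 1 of the treated libraries. The differences that missed the threshold with all libraries were -0.4 for Mt2 (95% interval -0.74 to -0.057), -0.34 for Slc39a10 (-0.79 to 0.12) and -0.22 for Slc30a4 (-0.49 to 0.06). All 3 were called lower without Control replicate 3, when 33.9% of tested genes were called, and with only the 6 libraries of the comparison, at values from -0.41 to -0.38 for Mt2, -0.35 to -0.32 for Slc39a10 and -0.23 to -0.2 for Slc30a4. Mt2 was also called lower without Control replicate 2 (log2 -0.38, adjusted p = 0.047). The intervals for the 4 other genes were -0.25 to 0.095 for Mtf1, -0.26 to 0.085 for Slc30a6, -0.12 to 0.29 for Slc30a7 and -0.18 to 0.27 for Slc39a1.

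Compared with the nonporous SNP100, 3 of the 10 genes were higher with MSNPs and 0 were lower, when 17.9% of all tested genes were called, 10.4% higher and 7.53% lower. These were Slc30a1 (log2 0.88 ± 0.0956, adjusted p = 7.5e-06, edgeR), Slc39a10 (0.78 ± 0.214, adjusted p = 0.0181) and Slc30a4 (0.54 ± 0.13, adjusted p = 0.00833). The groups did not overlap for 8 of the 10 genes, compared with 45.6% of all tested genes. Without MSNP replicate 1 the call was left to Slc30a1 alone, when 13.4% of all tested genes were called. Slc39a10 was also lost without any 1 of SNP100 replicates 1, 2 and 3 or MSNP replicate 2. When Control replicate 3 was left out, which bears on this comparison through the normalization and the shared estimate of the spread, 8 of the 10 genes were called higher, all but Slc30a6 and Slc30a7, when 33.1% of all tested genes were called. Without Control replicate 2 there were 6, when 20.8% were. In that fit without Control replicate 3, Mt1 stood at 0.47 and Mt2 at 0.31. The doses, 200 and 50 µg/mL, were not the same.

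Between SNP50 and SNP100, the nonporous particles of different size and dose, 0 of the 10 genes were called by edgeR and 0 by DESeq2, and 0 of the 10 had p under 0.05 before adjustment. Of all tested genes, edgeR called 0%, while 867 had p under 0.05 before adjustment, and DESeq2 called 0.00504% of the genes with an adjusted p. These missed thresholds do not show that the genes were alike in both groups. The intervals of the difference reached from -0.57, for Slc39a10, to 0.53, for Mt1, on the log2 scale. The groups did not overlap for 2 of the 10 genes, Mtf1 and Slc30a4, compared with 23.9% of all tested genes.

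The pattern of each gene over the 15 libraries was compared with that of other genes by the Pearson correlation of log2 CPM, as a description over libraries that share their groups and the length trend. Within the 10 genes, Slc30a4 and Slc39a10 were closest, with r = 0.973, followed by Mtf1 and Slc30a4 at 0.964, Slc30a1 and Slc30a5 at 0.952, Mtf1 and Slc39a10 at 0.947, and Mt1 and Mt2 at 0.92. The metallothioneins and Slc30a1, all held to be targets of MTF1, were less alike, with r = 0.512 between Mt1 and Slc30a1 and 0.511 between Mt2 and Slc30a1. Leaving out Control replicate 3 gave 0.667 and 0.642. Mt1 and Mtf1 themselves stood at -0.0237, and at 0.147 without that library.

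Among all other protein-coding genes with a mean of at least 1 CPM, the 5 most like Slc30a1 were Ppm1h at r = 0.996, Ctnnb1 at 0.995, Atp6v1a at 0.993, Nampt at 0.992 and Oxct1 at 0.992. The 5 most like Slc39a10 were Itprid2 at 0.993, Atp10d, Atp8b4 and Septin11 at 0.99 and Lpgat1 at 0.986. For Mt1 they were Bex3 and Haus8 at 0.969, Psmb6 at 0.968, and Cltb and Faim at 0.965. Those most like Mt2 were Haus8 at 0.944, Leng1 at 0.911, Bcl2a1d at 0.9, Eif4a1 at 0.895 and Bex3 at 0.892.

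The rest of the zinc transporters and metallothioneins were read from a list of 20 genes, of which 12 passed the filter and 8 (Mt4, Slc30a2, Slc30a3, Slc30a8, Slc30a10, Slc39a5, Slc39a12 and Tmem163) had 3 or fewer counts in every library. In the MSNP-treated group 5 rose and 2 fell, with a median log2 fold change of 0.22. All 7 belong to the SLC39 importers, as do all of the 12 except Slc30a9 and Mt3. Of all tested genes 22.8% were called here, 11.8% higher and 11% lower. The same 7 were called in the same direction without Control replicate 3, when 29.5% of all tested genes were. With the other 3 particles 0 of the 12 were called by edgeR with all libraries. In the fit without Control replicate 3, 1 was called lower with SNP100 (Slc39a14), 3 with SNP50 (Slc39a9, Slc39a11 and Slc39a14) and 1 with HMSNPs (Slc39a11). That fit called 5.16%, 18.9% and 8.66% of all tested genes in these groups. Mt3, the brain metallothionein, passed the filter with at most 5 counts in any library and is given no fold change.

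Among these importers, Slc39a2 (ZIP2) showed the largest fold with MSNPs at a low level. It was measured at 9.09, 8.18 and 7.26 CPM, from 245 to 303 counts, with MSNPs and at 1.49, 1.65 and 1.54 CPM, from 49 to 59 counts, in the controls (log2 2.39 ± 0.159, adjusted p = 2.55e-08, edgeR). It lay between 1.06 and 2.31 CPM in the 9 other libraries, all below those of MSNPs. Slc39a6 (ZIP6), which pairs with ZIP10 in a heteromer, was measured at 275, 266 and 259 CPM with MSNPs and at 118, 130 and 97.6 CPM in the controls (log2 1.21 ± 0.0897, adjusted p = 8.14e-08). Slc39a8 (ZIP8), an importer of lysosomal and plasma membranes that also carries manganese, rose from a mean of 1.98 to 3.78 CPM (log2 0.94 ± 0.195, adjusted p = 0.00221). Slc39a3 and Slc39a11 rose by less, at 0.2 and 0.24.

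Slc39a14 (ZIP14), which carries zinc, iron and manganese, fell with MSNPs. It was measured at 60.2, 60.9 and 60.1 CPM with MSNPs and at 123, 138 and 84.2 CPM in the controls (log2 -0.93 ± 0.129, adjusted p = 6.25e-05, edgeR), without overlap. With HMSNPs it stood at 123, 133 and 130 CPM, so that it was higher than with MSNPs by a log2 fold change of 1.09 (adjusted p = 1.42e-05). Slc39a13 (ZIP13), of the Golgi and its vesicles, fell by 0.41 on the log2 scale with MSNPs (adjusted p = 0.00244). The same 7 importers were also called between HMSNPs and MSNPs, 5 lower and 2 higher with HMSNPs, when 20.2% of all tested genes were called. They were called between MSNPs and SNP100 too, 5 higher and 2 lower with MSNPs, when 17.9% of all tested genes were. These comparisons share the MSNP libraries.

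**Figure D4:**
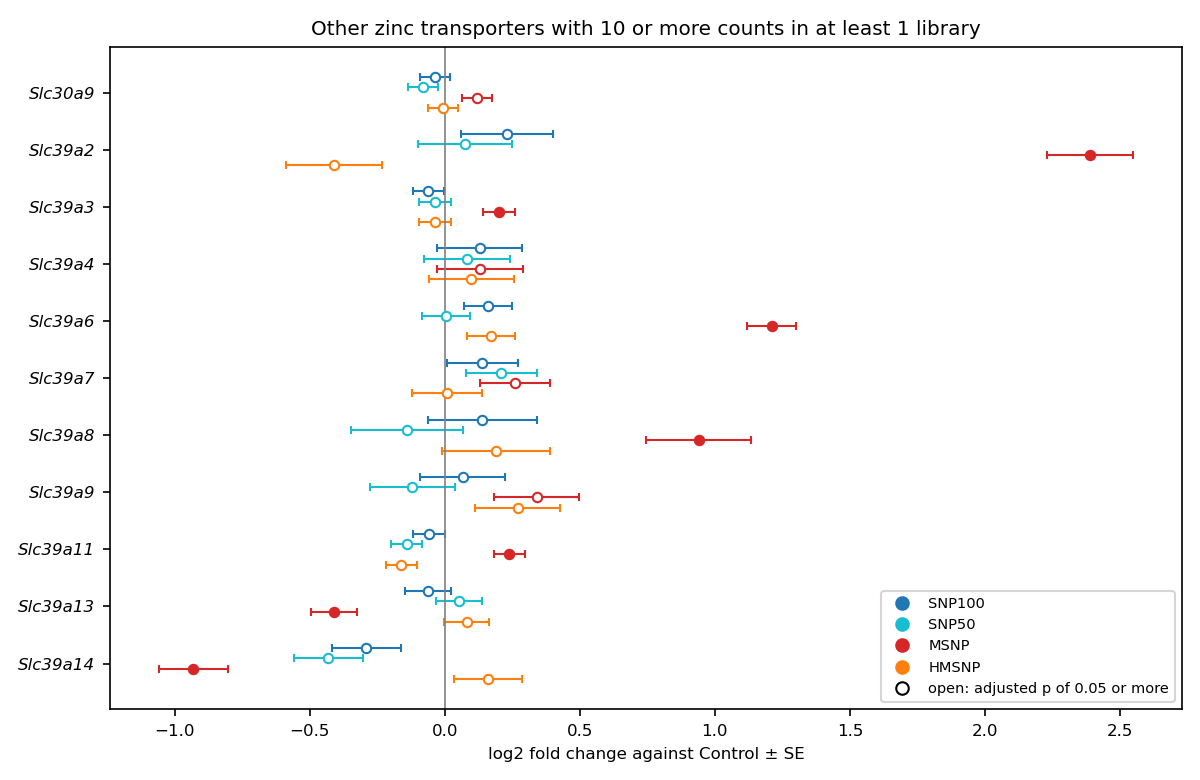
Log2 fold change against the nontreated controls (horizontal axis, with SE bars) of the 11 other zinc transporter genes with 10 or more counts in at least 1 library (vertical), in the 4 particle groups by colour. Filled symbols passed an adjusted p of 0.05. Filled symbols occur in the MSNP-treated group alone, for Slc39a2, Slc39a3, Slc39a6, Slc39a8, Slc39a11, Slc39a13 and Slc39a14.

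Further genes described as MTF1 targets or as metal-responsive were read from a list of 9, of which 7 passed the filter. In the MSNP-treated group, where 22.8% of all tested genes were called, 4 rose and 2 fell, with a median of 0.42. The 4 were Ndrg1 (log2 2.3 ± 0.063), the iron exporter Slc40a1 (1.56 ± 0.204), the ferritin heavy chain Fth1 (0.44 ± 0.146) and Csrp1 (0.42 ± 0.127). The 2 were Hmox1, the heme-degrading enzyme (-0.68 ± 0.171), and Gclc, of glutathione synthesis (-0.35 ± 0.103). Hmox1 fell in every other group too, by a log2 fold change of -1.47 with SNP100, -1.52 with SNP50 and -0.83 with HMSNPs. Slc40a1 fell with SNP50, at -1, and the selenoprotein gene Selenow rose with SNP50, at 0.68 (adjusted p = 0.0497). Without Control replicate 3, when 29.5% of all tested genes were called, there were, with MSNPs, 5 higher and 2 lower, Selenow being the gene added. In that fit the values were 2.28 for Ndrg1, 1.38 for Slc40a1, 0.73 for Fth1, 0.66 for Csrp1, -0.78 for Hmox1 and -0.48 for Gclc. MSNP and control libraries overlapped for Fth1, Csrp1 and Gclc. The same fit called 1 higher and 3 lower with SNP100, 1 higher and 3 lower with SNP50, and 1 higher and 1 lower with HMSNPs, beside 5.16%, 18.9% and 8.66% of all tested genes. Slc30a10 and Tff3, of the same list, had 3 or fewer counts in every library.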

How the data were processed

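Poly(A) RNA from the 15 libraries was sequenced by the authors as directional libraries. The table the authors deposited holds raw whole-number counts for each gene in each of the libraries. The submitters' processing notes name STAR 2.7.9a, cutadapt 1.16, featureCounts 1.6.3 and GRCm39. The annotation and the strand setting of the counting are not given in the sources used here. Groups were taken from the labels, and doses and nominal diameters from the study's methods.

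Symbols, positions and transcript lengths were taken from GENCODE vM39, which held 56630 of the 57186 identifiers. The 19839 genes whose counts summed to 10 or more were tested. Counts were analysed with edgeR 4.0.16 in R 4.3.3, with TMM normalization, 1 model of all 15 libraries, quasi-likelihood tests, and adjustment by Benjamini-Hochberg over all tested genes at 0.05. Standard errors were computed from the fold change and its F statistic. CPM are TMM-scaled, and correlations used log2 CPM with a prior count of 2. The ratio of Mt1 to Mt2 was compared by exact permutation, enumerating every split of the 6 libraries, in Python 3.11.15. On simulated counts of MSNP against Control over 19458 genes, 195 of 200 genes changed 2-fold were called (97.5%), with 8 false calls. The simulation gave every gene the same spread, with no length trend and none of the wider spread of the controls. Its rates therefore do not carry over to the real comparison.

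The 10 genes, the lists and the alternatives were chosen with earlier results of these data known. Named were the 10 genes, list genes called against the controls or with 3 or fewer counts in every library, and the 5 genes most correlated with each of Mt1, Mt2, Slc30a1 and Slc39a10. The alternatives were DESeq2 1.42.0, RLE normalization, the filterByExpr filter, no filter, levels by library totals, a model of just the 6 libraries compared, a block for the replicate number, an offset for transcript length (lowess, span 0.3, fitted where the mean log2 CPM of a gene was above 1), the same without Control replicate 3, and leaving out each library in turn. The list counts without Control replicate 3 were added after seeing the data. Depth allows a floor of 3 counts, which covers counting error only. Sequences were read from GRCm39.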

Additional observations from a re-analysis of the deposited data

How the results depend on the processing

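Of 1720 alternative values of 160 results, 1578 kept their side of the threshold or, where there was no test, stayed within the limits below. A call was lost by 31 values and gained by 72, and 4 values reversed direction with a call. Another 35 values without a test (levels and counts over lists) moved by more than the spread between replicates or by more than 1.5 times. The cause of these changes was not tested. A change of direction between fits that both missed the threshold was not counted as reversed. Slc30a7 with MSNPs, for example, went from 0.11 with all libraries to -0.14 with the length offset. With the length offset the genes called of 10 went from 0 to 2 with SNP100, from 0 to 3 with SNP50, from 0 to 4 with HMSNPs, from 3 to 5 for MSNP against SNP100 and from 3 to 6 for HMSNP against MSNP, while the share of all tested genes called was 2.71%, 4.7%, 10.2%, 24.6% and 27%, against 0.912%, 1.41%, 5.16%, 17.9% and 20.2% without the offset. With the offset and without Control replicate 3 they were 2, 4, 4, 8 and 7, and 1 for SNP50 against SNP100, where Mt2 was lower, beside shares of 6.25%, 15.6%, 11.3%, 34.5%, 36.3% and 0.974%. With only the 6 libraries of a comparison they were 1 for MSNP against Control, 8 for MSNP against SNP100 and 6 for HMSNP against MSNP, beside 13%, 40.9% and 40.9% of all genes tested there. DESeq2 gave 1 for HMSNP against Control and 5 for MSNP against SNP100, beside 15.1% and 23.8% of the genes with an adjusted p. Leaving out 1 library gave 0 to 2 with SNP100, 0 to 4 with SNP50, 5 to 6 with MSNPs, 0 to 4 with HMSNPs, 0 to 0 for SNP50 against SNP100, 1 to 8 for MSNP against SNP100 and 1 to 6 for HMSNP against MSNP. Beside these, the shares of all tested genes called against controls were 0.29% to 5.16%, 0.443% to 18.9%, 17.4% to 33.2% and 2.51% to 25.2%. Between particles, in the same order, they were 0% to 0.433%, 13.4% to 33.1% and 16.1% to 33.9%. Reversed were Slc39a10 with SNP50 without Control replicate 3 (-0.29, in a range of -0.29 to 0.27 when 1 library was left out) and Mt1 with HMSNPs with the offset (0.31), with the offset and without Control replicate 3 (0.36) and without Control replicate 3 (0.3, in a range of -0.18 to 0.3). The replicate block left the counts at 0, 0, 6 and 0 against the controls, 0 for SNP50 against SNP100, 3 and 3. With this block the shares of all tested genes called were 0.716%, 0.907%, 22.1%, 4.46%, 0%, 16.9% and 19.2%. Over 30 pairs of same-numbered libraries, deviations from the group means correlated at -0.517 to 0.573, with 10 over 0.1. Differently numbered libraries were not compared, so this check cannot tell whether the numbers pair the libraries. With 3 libraries a group, a missed threshold does not show that a gene did not change.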

Other observations

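Copper is bound by the same metallothioneins, and its handling genes were read from a list of 12, all of which passed the filter. In the MSNP-treated group, where 22.8% of all tested genes were called, 3 rose, the copper importers Slc31a1 (log2 0.75 ± 0.0671 SE, edgeR) and Slc31a2 (1.33 ± 0.0885) and the metalloreductase Steap3 (1.09 ± 0.072), and 1 fell, the copper- and zinc-containing superoxide dismutase Sod1 (-0.58 ± 0.163). In the HMSNP-treated group, where 5.16% of all tested genes were called, 1 rose, Slc31a2 (0.35 ± 0.0886). With SNP100 and SNP50 0 of the 12 were called by edgeR with all libraries, beside 0.912% and 1.41% of all tested genes. Without Control replicate 3 there were 5 higher and 1 lower with MSNPs, 2 higher and 1 lower with HMSNPs, 4 higher and 0 lower with SNP100, and 6 higher and 1 lower with SNP50. That fit called 29.5%, 8.66%, 5.16% and 18.9% of all tested genes in these 4 groups. In it Sod1 fell by less with MSNPs, at -0.25 (adjusted p = 0.0043, edgeR). Slc31a1, Slc31a2 and Steap3 stood there at 0.71, 1.42 and 1.15.

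Metallothionein genes also answer to glucocorticoids, and of 8 glucocorticoid-responsive genes 7 passed the filter. In the MSNP-treated group 3 of the 7 were called, beside 22.8% of all tested genes. Per1 (log2 0.64 ± 0.125) and Klf9 (0.69 ± 0.0859) rose and Fkbp5 (-0.42 ± 0.0732) fell. In the HMSNP-treated group Tsc22d3 (-1.07 ± 0.0867) and Sgk1 (-0.81 ± 0.0933) fell, and with SNP50 Sgk1 fell (-0.42 ± 0.0927), beside 5.16% and 1.41% of all tested genes called. With SNP100 0 of the 7 were called by edgeR with all libraries, beside 0.912% of all tested genes. The fit without Control replicate 3 called 4 higher and 1 lower with MSNPs, 2 lower with HMSNPs, 2 lower with SNP50 and 1 lower with SNP100, beside 29.5%, 8.66%, 18.9% and 5.16% of all tested genes. Zbtb16 had 3 or fewer counts in every library.

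Zinc enzymes and zinc-binding proteins were read from a list of 11 symbols, of which 10 were found in the count table and 7 passed the filter. With MSNPs 4 of the 7 were called, beside 22.8% of all tested genes. Adenosine deaminase Ada (log2 1.52 ± 0.0785) and the zinc chaperone gene Zng1 (0.34 ± 0.0669) rose, and carbonic anhydrase Car2 (-1.16 ± 0.0903) and Sod1 fell. Ada rose with SNP50 (0.37 ± 0.078), Car2 fell with HMSNPs (-0.86 ± 0.0897), and 0 of the 7 were called with SNP100 by edgeR with all libraries. The shares of all tested genes called there were 1.41%, 5.16% and 0.912%. Leaving out Control replicate 3 gave 2 higher and 2 lower with MSNPs, 3 higher and 1 lower with SNP50, 1 higher and 1 lower with HMSNPs, and 1 higher with SNP100, beside 29.5%, 18.9%, 8.66% and 5.16% of all tested genes. Alpl, Car4 and S100a9 had 3 or fewer counts in every library.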
